A study of Mus musculus with 4 samples.

Results

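In this group of 31 miRNA hairpins, at least 50% of the reads that MIN6-derived exosomes gave lay outside the annotated mature arms. The hairpins were chosen from the exosome libraries alone. For each of the 895 hairpins with a read in any library, the total and the off-arm reads were summed over the 2 exosome libraries, and a hairpin was kept with a total of at least 30 and an off-arm share of at least 50%. Hairpins of 13 name groups, among them the large clusters mir-297, mir-466, mir-467 and mir-669, were left out by the rule. Of the 191 hairpins with 30 or more exosome reads, 31 were kept, 14 with such a share carried a left-out name, and 146 were below 50% (on-arm hairpins). The on-arm hairpins include some with left-out names, such as mir-466q and mir-669c. The off-arm share and the exosome total therefore chose the members, and their exosome values are given as a description without a test. The chosen hairpins ranged from 30 to 46281 exosome reads.

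A miRNA hairpin is a short RNA that folds back on itself. Drosha and Dicer cut it into 2 arms, each about the length that an Argonaute protein holds, and the mature miRNA pairs with mRNAs mainly through its seed, bases 2 to 8 from its 5′ end. The loop and the flanks of the hairpin are normally lost, so reads of a canonical hairpin fall on its arms. Some entries of miRBase overlap other RNAs, such as tRNA and snoRNA genes, or stretches copied many times in the mouse genome, such as the short interspersed repeats B1 and B2. A short read from any copy can then be counted at the hairpin.

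MIN6 is a mouse insulinoma line used as a model of the insulin-secreting beta cell. Both groups came from this line, grown in serum depleted of exosomes and with β-mercaptoethanol. The groups were the cells (2 libraries) and the exosomes isolated from their medium (2 libraries), with no treatment, time course or second line. RNA was tailed with poly(A) and copied by template switching in the SMARTer smRNA-Seq kit. This captures RNA without selecting for the ends that Dicer leaves. The labels do not say whether the 2 libraries of a group came from separate cultures, so the spread between them may be technical. The cell libraries held 4822504 and 4136063 hairpin reads, and those of the exosomes 135622 and 126752. The floor was set at 3 counts in each library, or 0.938 and 1.12 CPM in the cells, and 12.2 and 18.6 CPM in the exosomes. CPM, used throughout, is the count scaled to the library's hairpin reads times its TMM factor. Replicates of a group differed by more than sampling noise, with a chi-square per degree of freedom of 36.2 in the cells and 108 in the exosomes. The beta cell marker hairpins mir-375, mir-7a-1, mir-7a-2 and mir-7b had 21979 to 95405 reads in a cell library, and 41 to 539 in an exosome library. No read position or length was used, so where in a hairpin an off-arm read lay is unknown, and the arm opposite a hairpin's only annotated arm counts as off-arm.

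The hairpins with the most exosome reads, and those whose sequence overlaps another RNA gene, are printed below as the files hold them, 5′ to 3′, with the annotated arms in capitals and the off-arm bases in lower case.
mir-1195: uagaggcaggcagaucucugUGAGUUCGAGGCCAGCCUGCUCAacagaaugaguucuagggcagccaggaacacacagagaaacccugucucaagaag
mir-690: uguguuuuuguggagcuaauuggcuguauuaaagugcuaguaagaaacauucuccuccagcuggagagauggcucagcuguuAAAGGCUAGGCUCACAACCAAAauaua
mir-1983: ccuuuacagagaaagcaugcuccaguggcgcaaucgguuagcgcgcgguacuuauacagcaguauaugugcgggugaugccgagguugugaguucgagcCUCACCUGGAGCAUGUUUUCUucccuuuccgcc
mir-1934: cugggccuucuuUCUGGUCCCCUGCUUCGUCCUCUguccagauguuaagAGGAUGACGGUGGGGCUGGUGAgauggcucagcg
mir-3470b: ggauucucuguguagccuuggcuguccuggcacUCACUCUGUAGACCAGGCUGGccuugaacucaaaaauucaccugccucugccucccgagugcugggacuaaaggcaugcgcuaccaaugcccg
mir-3535: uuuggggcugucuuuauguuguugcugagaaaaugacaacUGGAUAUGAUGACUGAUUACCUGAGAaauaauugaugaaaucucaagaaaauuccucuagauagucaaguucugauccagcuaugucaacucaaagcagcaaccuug
mir-709: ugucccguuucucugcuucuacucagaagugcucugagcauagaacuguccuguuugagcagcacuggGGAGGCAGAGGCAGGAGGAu
mir-682: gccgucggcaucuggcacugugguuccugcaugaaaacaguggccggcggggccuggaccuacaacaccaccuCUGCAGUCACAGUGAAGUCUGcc
Positions are those of GENCODE vM21 on GRCm38. mir-1195 lay at chr17:70860503-70860600 (minus strand), in an intron of the pseudogene Gm9320 on the opposite strand. mir-690 lay at chr16:28599935-28600043 (minus strand) in an intron of Fgf12, a fibroblast growth factor homologous factor, and mir-709 at chr8:84086099-84086186 (plus strand) in an intron of Rfx1, a transcription factor. mir-1983 lay at chr13:21896918-21897049 (minus strand) and held the RefSeq tRNA gene n-TItat14, an isoleucine tRNA gene with the anticodon TAT, at chr13:21896938-21897031. This tRNA covers bases 19 to 112 of the hairpin and the arm bases 100 to 120, so that most of the tRNA is off-arm. mir-3535 lay at chr1:86351981-86352127 (minus strand) in Ncl, which encodes nucleolin, on the same strand as Gm24148, a snoRNA gene in GENCODE. RefSeq lists Gm24148 as a miRNA gene with the coordinates of the hairpin. mir-682, chosen for printing after its values were seen, lay at chr13:75645046-75645141 (plus strand) in an exon of the processed pseudogene Gm4149, and windows of 18 of its bases not wholly inside the arm also matched Rpl37a, which encodes a protein of the large ribosomal subunit.

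Most of these hairpins have a single annotated arm with a long unannotated stretch beside it. Of the 31, 27 (87.1%) had 1 annotated arm, against 17 of the 146 on-arm hairpins (11.6%) and 10 of the 14 with left-out names (71.4%). With 1 arm annotated, more of a hairpin counts as off-arm, so the rule favours such hairpins. The 4 with both arms were mir-1934, mir-7668, mir-7688 and mir-135a-1. Their 35 mature arms carried 34 different seeds, so they are not a family by seed. The exception was the seed shared by miR-8111 and miR-1946b, whose first bases miR-1946a holds with 1 base more at the 5′ end. These are printed with the seed in capitals.
miR-8111: aCCGGGCAugguaguguacac
miR-1946b: gCCGGGCAgugguggcacaugcuuuu
miR-1946a: aGCCGGGCagugguggcacacacuuuu

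**Figure D1:**
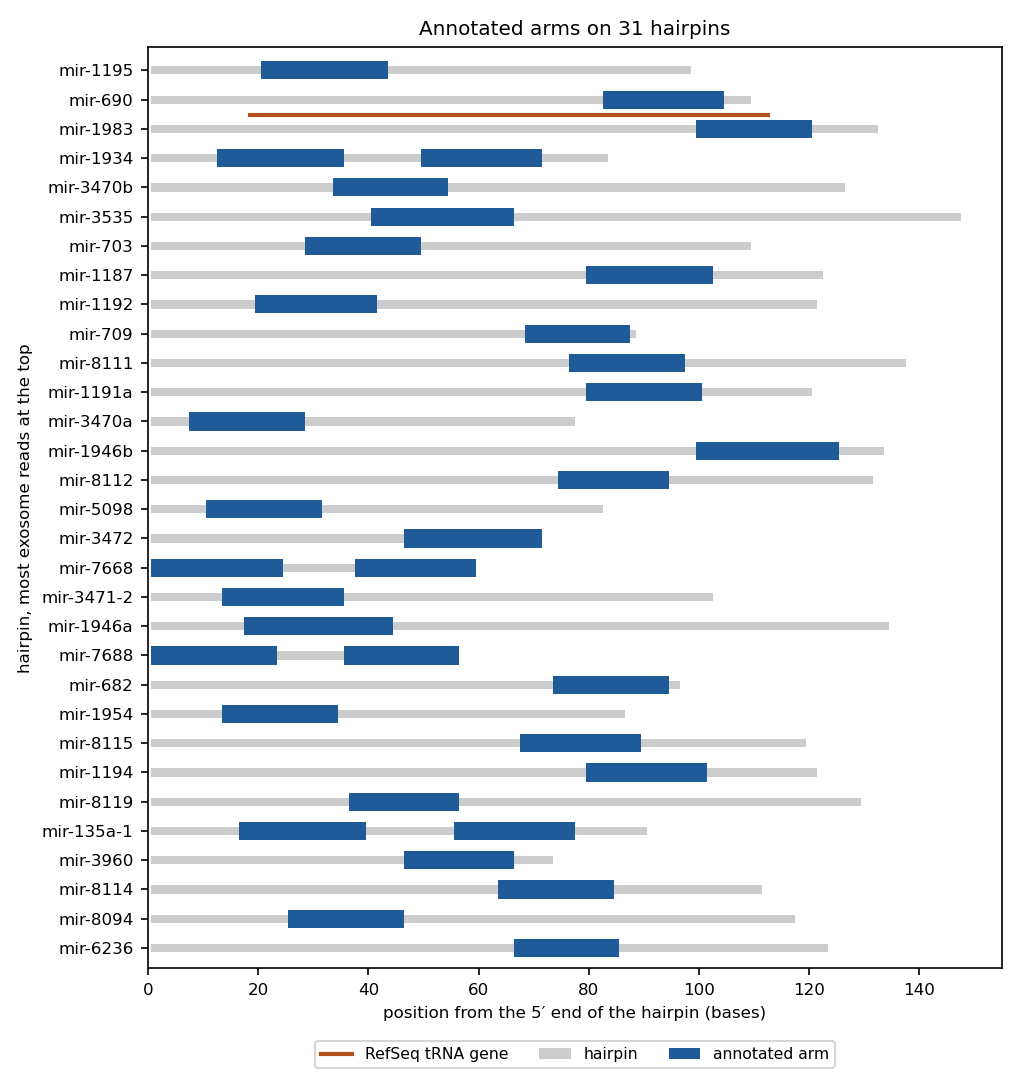
Position of the annotated arms (blue) on each of the 31 hairpins (grey), in bases from the 5′ end of the hairpin. The orange line marks the tRNA gene within mir-1983, at bases 19 to 112; 27 hairpins carry 1 arm and 4 carry both.

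The 31 hairpins held nearly all off-arm reads of the cells and most of those of the exosomes, but through different members. Of all hairpin reads, 10.9% and 9.58% were off-arm in the cell libraries, against 32.8% and 42.0% for the exosomes. The chosen hairpins carried 99.3% and 99.1% of the off-arm reads of the cells and 70.1% and 76.2% of those of the exosomes. In the cells this was almost entirely mir-690, with 97.9% and 97.6% of the off-arm reads. In the exosomes mir-690 gave 12.4% and 4.14% of them, and mir-1195 gave 41.1% and 52.6%. mir-1195 alone took up 13.5% and 22.1% of all hairpin reads of the exosomes, against 0.0664% and 0.0443% in the cells.

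mir-1195 had the most exosome reads of the group and almost none on its arm. Its off-arm reads were 3201 of 3203 and 1833 of 1834 in the cells and 18261 of 18278 and 27983 of 28003 in the exosomes. The mature arm, miR-1195, had 2 and 1 reads in the cells, against 17 and 20 for the exosomes. Off-arm reads were at 842 ± 225 CPM (SD, n = 2) in the cells and 123711 ± 69883 CPM in the exosomes, a ratio of 147 (88.2 without exosomes replicate 2, 206 without exosomes replicate 1). Both exosome libraries were above both cell libraries, and the off-arm share was the same to within 0.1 percentage points in all 4 libraries. A change in the hairpin's total was in this case a change in off-arm reads.

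mir-690, whose mature miRNA is among those the study names, was the most abundant member in the cells and went the other way. It had 516276 off-arm reads of 531477 and 387066 of 400202 in the cells, and 5514 of 6098 and 2203 of 2931 in the exosomes. Off-arm reads were at 152833 ± 12192 CPM in the cells and 18032 ± 6226 CPM in the exosomes, 0.118 times the level. Arm reads (miR-690) were at 4824 ± 99.3 CPM in the cells and 3440 ± 1505 CPM in the exosomes, 0.713 times the level, and by library size alone this direction turned (log2 ratio 0.67). The off-arm share was 97.1% (95% Wilson interval 97.1 to 97.2) and 96.7% (96.7 to 96.8) in the cells, and 90.4% (89.7 to 91.1) and 75.2% (73.6 to 76.7) in the exosomes. The exosome shares were below both cell shares and differed from each other beyond counting error.

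In 3 hairpins off-arm CPM was higher and arm CPM lower in the exosomes than in the cells, in every library. With the TMM scaling these differences went beyond counting error. Over all 428 hairpins tested, off-arm reads were above the cells in 32.2% and arm reads below them in 50.5%. How many hairpins showed both was counted in the group only. mir-1983, which holds the tRNA, had 179 off-arm reads of 396 and 157 of 361 in the cells, and 1055 of 1056 and 4348 of 4349 in the exosomes. Its off-arm reads were at 56.0 and 58.5 CPM in the cells and at 4292 and 26900.2 CPM in the exosomes, a ratio of 272 that was 74.99 without exosomes replicate 2 and 470.0 without exosomes replicate 1. Its arm, miR-1983, had 217 and 204 reads in the cells and 1 in each exosome library, a ratio of summed CPM of 0.0686 (counting interval 0.00828 to 0.249). The cells held arm and off-arm reads in nearly equal parts, while the exosomes held off-arm reads almost alone. The 2 exosome libraries lay far apart in off-arm level but not in share.

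mir-3535 overlaps a gene that GENCODE lists as a snoRNA. This hairpin had 2108 off-arm reads of 2308 and 1912 of 2072 in the cells, and 992 of 998 and 218 of 218 in the exosomes. Off-arm reads were at 686 ± 37.6 CPM in the cells and 2692 ± 1900.2 CPM in the exosomes, a ratio of 3.93 that was 1.97 without exosomes replicate 1 and 5.89 without exosomes replicate 2, while arm reads had a ratio of 0.241 (counting interval 0.0877 to 0.529). mir-8112, in an exon of Krcc1, had 214 off-arm reads of 330 and 225 of 337 in the cells, and 76 of 78 and 85 of 85 in the exosomes. Its off-arm level was 5.54 times that of the cells and its arm level 0.127 times (counting interval 0.0152 to 0.463). In both hairpins, as in mir-1983, the off-arm share was higher with off-arm reads up and arm reads down. With library size alone the ratios kept these directions, but the arm of mir-3535 did not keep the order in every library. It had 6 reads of 135622 in exosomes replicate 1, a larger fraction than 200 of 4822504 and 160 of 4136063 in the cells. The counting intervals were computed with the TMM scaling only, so whether the lower arm levels go beyond counting error with library size alone was not tested. mir-1191a, mir-8111 and mir-1194 had the same order of libraries, but their arms were at 7.17, 0.685 and 2.81 CPM in the cells, under the floor of the exosome libraries, so a fall of the arm was not detectable at this depth.

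**Figure D2:**
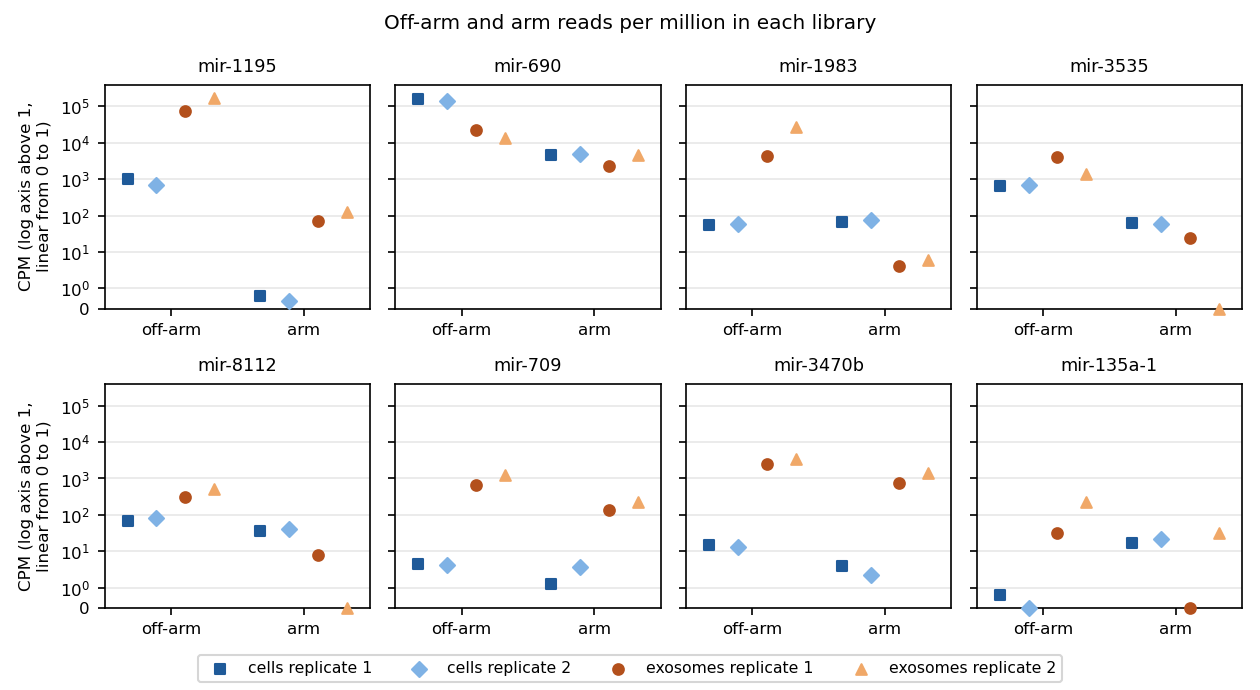
Off-arm and arm reads of 8 hairpins in CPM, with 1 point per library (axis logarithmic above 1 CPM and linear from 0 to 1). In mir-1983, mir-3535 and mir-8112 the exosome points lie above the cells for off-arm reads and below them for arm reads; in mir-1195, mir-709 and mir-3470b they lie above for both.

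In 12 hairpins with at least 3 arm reads in each exosome library, both kinds of reads were higher in the exosomes than in the cells in every library, mir-1195 among them. In 4 more, mir-703, mir-3472, mir-3471-2 and mir-1946a, the order was the same but the arm was under the floor in an exosome library. Over all 428 hairpins tested, off-arm reads were above the cells in 32.2% and arm reads in 30.1%. Hairpins with both above were counted in the group only. mir-709, whose mature miRNA the study also names, had 14 off-arm reads of 18 and 11 of 21 in the cells, and 166 of 200 and 207 of 243 in the exosomes. Off-arm reads were at 4.24 ± 0.198 CPM in the cells and 978 ± 428.0 CPM in the exosomes, and arm reads (miR-709) at 2.49 ± 1.75 and 181 ± 59.7 CPM. The arm ratio, 72.5, was 144 without cells replicate 2 and 48.5 without cells replicate 1. Of the exosome reads at this hairpin, 34 and 36 were on miR-709. Its off-arm share was 77.8% (95% Wilson interval 54.8 to 91.0) and 52.4% (32.4 to 71.7) in the cells and 83.0% (77.2 to 87.6) and 85.2% (80.2 to 89.1) in the exosomes, and the interval of cells replicate 1 overlaps those of both exosome libraries while that of cells replicate 2 lies below them.

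mir-3470b and mir-3470a share 19 bases, and their arms differ within the seed. mir-3470b had 49 off-arm reads of 62 and 36 of 42 in the cells, and 619 of 807 and 553 of 788 in the exosomes. mir-3470a had 5 of 6 and 1 of 3 in the cells, and 111 of 137 and 115 of 143 in the exosomes. Both kept more arm reads in the exosomes than most of the group, with 188 and 235 reads on miR-3470b and 26 and 28 on miR-3470a. The off-arm level of mir-3470b was 207 times and its arm level 352 times that of the cells.

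mir-1946b and mir-1946a, a second related pair, share 19 bases that lie within the arms. mir-1946b had 37 off-arm reads of 56 and 28 of 48 in the cells, and 69 of 83 and 89 of 95 in the exosomes. mir-1946a had 8 of 21 and 2 of 19 in the cells, and 23 of 34 and 57 of 59 in the exosomes. In both, off-arm reads gained on arm reads in the exosomes: the off-arm level was 37.8 and 137 times and the arm level 7.02 and 5.49 times that of the cells. For mir-1946a the off-arm ratio was 299 without cells replicate 1 and 57.6 without exosomes replicate 2, and the arm ratio 2.38 to 8.61 without each exosome library.

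Several of the larger hairpins had almost no arm reads in any library. mir-703 had 198 off-arm reads of 199 and 109 of 109 in the cells, and 548 of 549 and 555 of 556 in the exosomes. mir-1934 had 319 of 329 and 799 of 814 in the cells, and 2289 of 2294 and 2474 of 2480 in the exosomes, although both of its arms are annotated. mir-8111 had 77 of 79 and 59 of 61 in the cells, and 156 of 156 in each exosome library. For these the total and the off-arm level were nearly the same measurement, and the off-arm level in the exosomes was 55.2, 61.9 and 34.7 times that in the cells. The ratio of mir-1934 was 41.3 without cells replicate 1 and 123 without cells replicate 2. mir-1187, whose hairpin holds a run of alternating C and A, had 311 of 316 and 196 of 199 in the cells, and 455 of 488 and 342 of 370 in the exosomes. mir-1192, in an intron of the transcription factor gene Klf9, had 350 of 375 and 151 of 161 in the cells, and 251 of 259 and 436 of 454 in the exosomes. Their off-arm levels in the exosomes were 23.3 and 22.4 times those in the cells, and that of mir-1192 was 12.3 times without exosomes replicate 2.

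The remaining hairpins with 100 or more exosome reads were rare in the cells. mir-5098, in an intron of Rest, a transcriptional repressor of neuronal genes, had 11 of 11 off-arm reads in each cell library, and 77 of 77 and 68 of 68 in the exosomes. mir-3472 had 7 of 8 and 8 of 8 in the cells, and 48 of 49 and 90 of 91 in the exosomes. mir-3471-2 had 0 of 1 and 1 of 1 in the cells, and 48 of 49 and 51 of 55 in the exosomes. Its cell reads number 2 in all, and the ratio of summed totals, 751, carries a counting interval of 203 to 6281. mir-1191a had 25 of 47 and 8 of 28 in the cells, and 132 of 132 and 176 of 176 in the exosomes. Its arm, with 22 and 20 reads in the cells, had 0 in both exosome libraries.

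Some of the hairpins with fewer reads changed most in share. mir-135a-1 is a hairpin with both arms annotated, from a conserved miRNA family, in an intron of D030055H07Rik and opposite an exon of Glyctk, at chr9:106154124-106154213 (plus strand). mir-7688 is a short hairpin at chr10:93433107-93433162 (plus strand). They are printed with arms in capitals, and their longest off-arm runs are 16 and 12 bases.
mir-135a-1: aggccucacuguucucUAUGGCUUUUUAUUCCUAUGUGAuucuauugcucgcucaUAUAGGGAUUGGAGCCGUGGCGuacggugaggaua
mir-7688: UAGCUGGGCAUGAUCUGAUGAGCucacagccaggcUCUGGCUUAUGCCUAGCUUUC
mir-135a-1 had 2 off-arm reads of 55 and 0 of 59 in the cells, and 8 of 8 and 36 of 41 in the exosomes. Its arm miR-135a-5p had 53 and 59 reads in the cells, against 0 and 5 for the exosomes, and is shared with mir-135a-2. The off-arm ratio of summed reads was 318 (counting interval 82.9 to 2705), and 36 of the 44 exosome off-arm reads came from replicate 2. Its arm ratio, 0.802, turned direction without exosomes replicate 1 (log2 ratio 0.68) and with library size alone (0.64). mir-7688 had 0 off-arm reads of 16 and 0 of 20 in the cells, which allows a share of up to 19.4% and 16.1% by the 95% Wilson interval. In the exosomes it had 37 of 44 and 44 of 47. Its off-arm level in the exosomes was at least 206-fold higher, taking the floor of 3 counts in each cell library. In the cells nearly every read of these 2 hairpins lay on an arm.

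At the other end, mir-6236, mir-3960 and mir-8114 were mostly off-arm in the cells as well, and their off-arm levels differed least between the groups. mir-6236 had 236 off-arm reads of 257 and 151 of 184 in the cells, and 12 of 15 and 9 of 15 in the exosomes. mir-3960, in an exon of Cdk9, a kinase of transcription elongation, had 45 of 66 and 55 of 73 in the cells, and 13 of 24 and 10 of 17 in the exosomes. mir-8114, in an exon of Glul, which encodes glutamine synthetase, had 152 of 263 and 111 of 197 in the cells, and 10 of 14 and 18 of 22 in the exosomes. Off-arm levels in the exosomes were 0.803, 3.32 and 1.71 times those in the cells, and for mir-6236 and mir-8114 the direction depended on the scaling or on 1 exosome library. With library size alone the off-arm log2 ratio of mir-6236 was 0.90, and without exosomes replicate 2 that of mir-8114 was -0.13.

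Nearest to the threshold, mir-7668 had 54.3% of its 129 exosome reads off-arm, mir-3960 56.1% of 41 and mir-8094, in an exon of the RNA helicase gene Ddx39b, 58.1% of 31. mir-7668 had 3 off-arm reads of 15 and 0 of 5 in the cells, and 23 of 50 and 47 of 79 in the exosomes. Its share was below 50% in exosomes replicate 1, the only library and hairpin for which this held among the exosome values of the group. Just outside were mir-677 with 46.5% of 43 reads, mir-200c with 27.1% of 166 and mir-344d-3 with 25.0% of 68. No hairpin outside the left-out names lay between 46.5 and 54.3%.

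**Figure D3:**
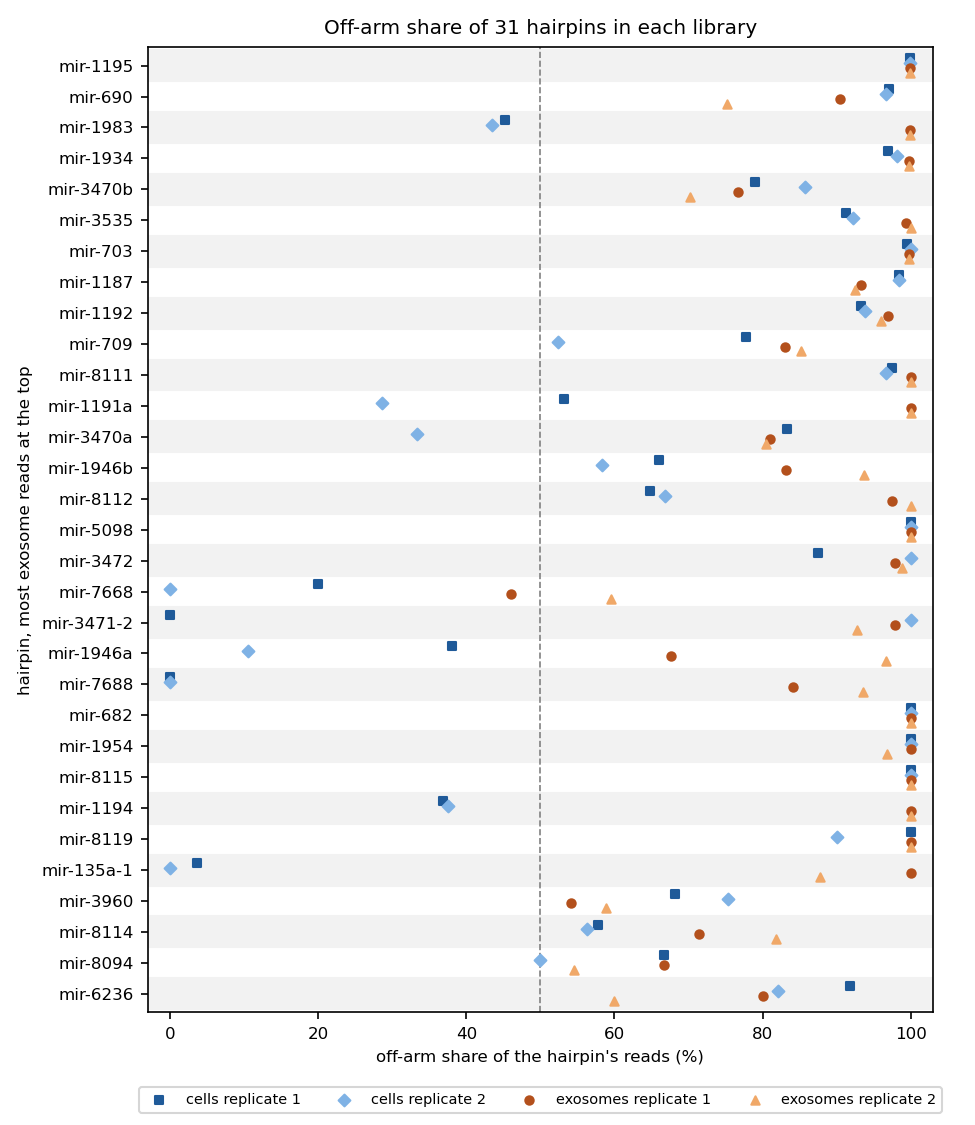
Off-arm share of each of the 31 hairpins (percent of its reads), with 1 point per library and the 50% threshold dashed. The exosome points chose the hairpins; both cell points of mir-7668, mir-7688, mir-135a-1, mir-1946a, mir-1983 and mir-1194 lie below 50%.

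The cell libraries played no part in the choice, and most of the hairpins that could be measured there were off-arm in the cells too. Of the 31, 20 had 30 or more reads over both cell libraries, and 15 of these had an off-arm share of at least 50%. Of all 360 hairpins with 30 or more cell reads, 27 reached this share, or 7.5%, and of the 340 that are not in the group 12 did. The median share in the cells was 76.8% (range 0 to 99.9%) over the 20 hairpins and 0.00064% over the other 340. With cells replicate 1 left out the median was 89.0% over 16 hairpins, and with replicate 2 left out 91.3% over 17. The 5 hairpins below 50% were mir-1983 (44.4%), mir-1191a (44.0%), mir-1946a (25.0%), mir-135a-1 (1.75%) and mir-7688 (0%).

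The share was higher in the exosomes than in the cells for 14 of these 20 hairpins and lower for 6. Of all 163 hairpins with 30 or more reads in both groups it was higher for 84 (51.5%), equal for 30 and lower for 49. None of the equal ones was in the group. The choice by exosome share favours a higher share in the exosomes, and the count of members is a description. The increases reached 89.0 percentage points in mir-7688, 88.0 in mir-135a-1, 61.0 in mir-1946a, 56.0 in mir-1191a and 55.6 in mir-1983. The difference, exosomes minus cells, was -17.8 points in mir-6236, -15.8 in mir-3960, -11.5 in mir-690 and -8.25 in mir-3470b. Among hairpins with 30 or more reads in both groups, 1 of the 134 on-arm hairpins had 50% or more off-arm in the cells, and their median was 0.0143%.

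**Figure D4:**
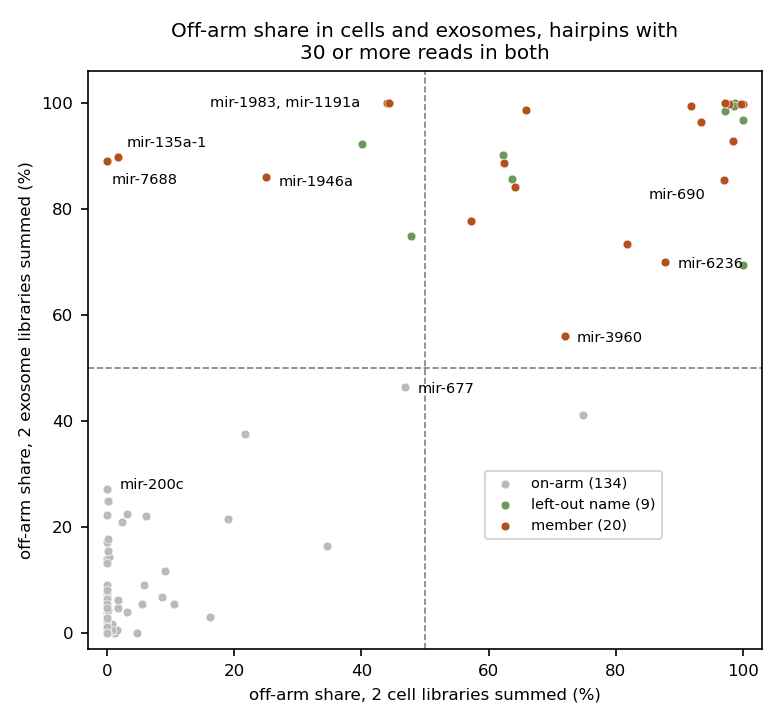
Off-arm share in the summed cell libraries (x axis, percent) against the summed exosome libraries (y axis, percent) for hairpins with 30 or more reads in both; orange, the chosen hairpins (20); green, left-out names (9); grey, on-arm hairpins (134). Most orange points lie at the upper right, and 5 lie at the upper left, below 50% in the cells and above it in the exosomes.

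The rule was also applied to each exosome library alone, and the share was measured in the other. Both libraries took part in choosing the group, and they may be technical repeats of the same culture. The values therefore describe how far the share repeated between libraries, and are not an independent test of the group. With the rule applied to replicate 1 alone, 22 hairpins were chosen, and in replicate 2 all 22 had 30 or more reads and at least 50% off-arm, with a median of 97.9% and a lowest value of 70.2% (mir-3470b). The background in replicate 2 was 25 of 85 hairpins (29.4%), the chosen ones included, and the other 63 had a median of 0%. With the rule applied to replicate 2 alone, 25 were chosen, 23 of them had 30 or more reads in replicate 1, and 22 were at 50% or more (median 98.0%, lowest 46.0%, mir-7668). The background in replicate 1 was 22 of 130 hairpins (16.9%).

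By total reads, most of the group was higher in the exosomes, and these counts are given as a description because the exosome totals took part in the choice. In the quasi-likelihood test of edgeR over 428 hairpins, 26 of the 31 were higher at an adjusted p of 0.05 and 1, mir-690, was lower. mir-6236, mir-8114, mir-3535 and mir-135a-1 did not pass. Of all hairpins tested, 31.3% were higher (134) and 32.2% lower (138). The median log2 fold change was 5.81 over the 31 and -0.14 over all 428. With library size alone 167 hairpins were higher and 41 lower (80.3% of the calls higher, against 49.3% with TMM), and the median over all rose to 1.15. Without cells replicate 1 only 278 hairpins were tested, with a median log2 fold change of 1.09. Without cells replicate 2 it was 281 hairpins, with a median of 0.49. mir-690 was then no longer called lower, at log2 fold changes of -3.09 (adjusted p = 0.179) and -3.25 (adjusted p = 0.119) against -2.88 with all libraries. With library size alone its log2 fold change was -1.60 (adjusted p = 0.117).

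Both exosome libraries were above both cell libraries in total CPM for 28 of the 31 hairpins and below them for 1. Over all hairpins tested, 39% were above (167) and 47.7% below (204). Off-arm reads were above for 28, below for mir-690 and mir-6236, and overlapping for mir-8114, against 32.2% above and 11.4% below over all hairpins tested. Arm reads were above for 16, below for 8 and overlapping for 7, against 30.1% above and 50.5% below. In 12 of the 28 hairpins with off-arm reads above, arm reads were not, a joint order that was not counted over all hairpins tested. Of these 12, 8 had an arm level in a cell library under the lower of the exosome floors, so the order of their arm reads could not be read, and the other 4 were mir-1983, mir-3535, mir-8112 and mir-135a-1.

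The 44 hairpins of a list of miRNAs abundant in beta cells (the let-7, miR-7, miR-200, miR-183 and miR-30 families, mir-375 and others) lay at the other extreme, and none is in the group. Of these, 31 had 30 or more exosome reads, and 0 of the 31 had an off-arm share of 50% or more. Their median share was 0% and the highest 27.1%, in mir-200c. In the cells all 44 had 30 or more reads and the highest share was 5.10%, in mir-96. In the quasi-likelihood fit of the totals 38 of the 44 were lower in the exosomes, against 32.2% of all hairpins tested. With library size alone 8 of the 44 were lower, and without cells replicate 1 and 2 it was 24 of 42 and 25 of 41 tested.

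Features of the hairpins were compared with the on-arm hairpins and with the 14 hairpins of left-out names. The annotated arms decide which reads count as off-arm. The share of bases outside the arms and the longest run outside them are therefore tied to the choice, and are given as a description. The chosen hairpins had a median length of 111 bases, against 84 in the 146 on-arm hairpins and 109 in those with left-out names. A median of 80.5% of their bases lay outside the arms, against 47.6% and 75.2%. Among hairpins with 1 annotated arm this median was 81.1% in the group and 72.6% in the on-arm hairpins. The longest run of bases outside the arms had a median of 68 bases in the group, 18.5 in the on-arm hairpins and 52 in those with left-out names. The median GC content was 52.5% in the group and 49.5% in the on-arm hairpins, and the folding energy computed by RNAfold was -0.393 and -0.437 kcal/mol per base. The group was longer than the on-arm hairpins and close to those with left-out names, with wide overlap in GC content (26.2 to 82.2% against 25.0 to 69.1% on-arm).

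The off-arm bases were searched as 18-base windows for exact matches on the sense strand of 139565 transcripts, with miRNA genes and genes at the hairpin's own locus left out. Of the 27 hairpins with such a window, 23 (85.2%) matched another gene, against 10 of 82 on-arm hairpins (12.2%) and 12 of 12 hairpins with left-out names. At least 10 genes were matched by 18 of the 27 (66.7%) and by 3 of the 82 (3.66%). These 3 on-arm hairpins, mir-3473b (549), mir-3473a (249) and mir-466k (19), all carry left-out names. The median number of genes matched was 115 and 0. With 16-base windows 27 of 28 and 49 of 119 on-arm hairpins (41.2%) matched, with 22-base windows 19 of 27 and 2 of 47 (4.26%), and with windows not wholly inside an arm 26 of 31 and 66 of 146 (45.2%). At 22 bases the median of the group was 12 genes. Hairpins with more off-arm bases have more windows: among those with 1 annotated arm the median number was 65 in the group and 33 in the on-arm hairpins, and 23 of 27 and 5 of 17 matched. A match shows only that the same letters occur elsewhere, and no repeat annotation was used.

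The number of genes matched was highest for mir-1187 (2239), mir-5098 (2020), mir-1195 (1186) and mir-8111 (1155). These were followed by mir-1954 (872), mir-3470b (788), mir-690 (496) and mir-3470a (394). mir-8112 matched 148, mir-1191a 118, mir-3472 115 and mir-3471-2 75. Of the hairpins with an annotated small RNA gene at their locus, mir-3535 matched 3 genes and mir-1983 matched 1. The snoRNA gene at the locus of mir-3535 was left out of the search. The tRNA gene at mir-1983 came from RefSeq, whose genes were not searched. These low counts therefore do not show that the sequences occur nowhere else. mir-709, mir-8094, mir-8114 and mir-8119 had none, and mir-8119 lies in an exon of the kinase gene Lck. mir-682 matched 22 genes. With windows not wholly inside an arm mir-709 matched 138 genes, mir-6236 45 (against 7) and mir-3960 29 (against 1), so these counts depend on how windows at the edge of an arm are treated.

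**Figure D5:**
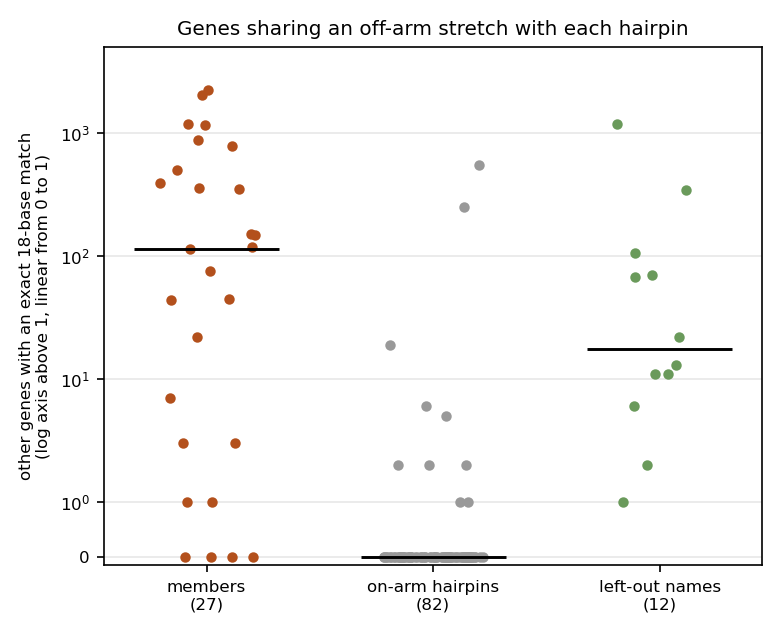
Number of other genes with an exact 18-base match to the off-arm bases of each hairpin (axis logarithmic above 1, linear from 0 to 1), for hairpins with at least 1 such window; black lines mark medians. The medians are 115 genes in the chosen hairpins (27), 0 in the on-arm hairpins (82) and 17.5 in those with left-out names (12).

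Several members also shared stretches with each other, so that they are not independent. A read that lies within a stretch shared on the same strand can be counted at each. This does not hold for a stretch on the opposite strand. mir-5098 and mir-1954, the latter in an intron of Eng and named after its values were seen, shared 24 bases on the same strand, and mir-1195 held 22 bases of mir-5098 on the opposite strand. The shared stretches are printed as they read in mir-5098 and in mir-1195.
mir-5098 and mir-1954: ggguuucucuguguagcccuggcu
mir-1195: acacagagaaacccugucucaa
The 10-base word acacagagaa, read on either strand, occurred in mir-1195, mir-3470b, mir-5098 and mir-1954, and in 5 of all 895 hairpins (0.559%). mir-690 shared 13 bases with mir-1934 on the same strand and 16 with mir-8115 on the opposite strand. mir-1954 had 4 of 4 off-arm reads in each cell library, and 35 of 35 and 31 of 32 in the exosomes, so both hairpins of the 24-base stretch were off-arm in all 4 libraries. The 5 hairpins not in the naming rule (mir-682, mir-1954, mir-8115, mir-8119 and mir-1194) had 50 to 84 exosome reads, of which at least 98.5% were off-arm.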

How the data were processed

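Small RNA of MIN6 cells and of their exosomes was sequenced in 2 libraries each. Before deposit the authors removed adapters and rRNA reads and aligned what was left, in order, to the genome, to miRBase v21 and to RNAcentral v10.0. They deposited raw read counts per hairpin and library, with the count on neither arm. The submitters' processing notes name mm10. The deposited RPM values of mature miRNAs equalled the count over the library sum and were not tested. Groups and replicate numbers came from the sample labels.

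Arm reads were computed as the total minus the off-arm reads. The deposited counts of 428 of 895 hairpins passed filterByExpr (minimum count 10) and were fitted by edgeR 4.0.16 (quasi-likelihood, TMM, Benjamini-Hochberg, threshold 0.05). With 2 libraries a group an exact permutation test cannot go below p = 0.333, and none was run. Ratios are exosomes over cells, of mean CPM where no counting interval is given and of summed reads, scaled by library, where one is. Shares of single libraries carry 95% Wilson intervals, and all intervals and floors cover counting error only. Loci and transcripts came from GENCODE vM21, 30 of the 31 hairpins matched a gene, and RefSeq gave the tRNA. RNAfold 2.7.2, Python 3.11.15 with scipy 1.17.1 and matplotlib 3.10.9, and R 4.3.3 with DESeq2 1.42.0, were used. The fit was also run on simulated counts with 200 changed hairpins and the same dispersion (0.225) for all. Its outcome is not given here and is not used as support for the fit to these libraries.

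The members and the lists were chosen with earlier results of these data known. Named with their values were hairpins with 100 or more exosome reads, of the rest with 30 or more cell reads the 3 lowest and 3 highest cell shares, the 3 nearest to 50% on each side, and members whose miRNA the study names. In 3 hairpins, none of them in the group, the total did not equal arms plus off-arm reads. The alternatives were other scalings, filters, tests, thresholds, window lengths, the replicate block and each library left out. Windows not wholly inside an arm and a fit without 4 abundant hairpins were chosen after seeing the data. A read can be counted at several hairpins.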

Additional observations from a re-analysis of the deposited data

How the results depend on the processing

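The number of chosen hairpins, 31, stayed between 26 and 32 for off-arm thresholds of 40 to 75%, was 47 with a minimum of 10 exosome reads and 19 with 100, and 22 to 25 from 1 exosome library alone. The median off-arm share in the cells, 76.8%, was 81.7% with a minimum of 10 cell reads, 89.8% with 100, and 89.0 to 91.3% with a cell library left out. For at least 10 counts in every library the fit tested 135 hairpins, 20 of them in the group. It gave 63 hairpins higher and 58 lower, and 17 of the 20 chosen hairpins higher. Leaving out a library gave 65 to 143 hairpins higher, 69 to 168 lower, 21 to 29 of the chosen hairpins higher and 0 to 1 lower. With library size alone 41 hairpins were lower, and 0 of the chosen ones. The fit without 4 abundant hairpins did not contain mir-690.

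Same-numbered libraries deviated together only weakly (r = 0.209 over 428 hairpins, across hairpins, with 2 pairs), so the replicate numbers were not taken to pair the libraries. With the replicate block 139 hairpins were higher and 127 lower, and 26 of the chosen hairpins higher and 0 lower.

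The log2 fold change of the mir-8114 total, 0.28, was -0.88 with no filter and -0.33 to 0.89 with a library left out. That of mir-6236, 0.03, was -1.13 with no filter, -0.14 without the 4 hairpins, and -0.29 to 0.40 with a library left out (negative without each cell library, -0.09 and -0.29, and without exosomes replicate 2, -0.17). The off-arm log2 ratio was -0.13 to 1.33 for mir-8114 with a library left out (lowest without exosomes replicate 2) and 0.90 for mir-6236 with library size alone. The arm log2 ratio with library size alone was 0.67 for mir-690, 0.64 for mir-135a-1 and 0.48 for mir-8114, and -0.51 to 0.68 for mir-135a-1 with a library left out (highest without exosomes replicate 1). The cause was not tested. All other single-hairpin values kept their direction, while the call was lost in 15 and gained in 14 of the single-hairpin fits under the alternatives. Exosome depth limits what is detectable to levels above 12.2 and 18.6 CPM.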
